A study of Mus musculus with 2 samples.

Results

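The subunits of the BAF and PBAF chromatin-remodelling complexes were followed in mouse embryonic stem (ES) cells of a Baf53a-deficient line that carried a vector for Baf53a or for Baf53b. The members are 30 genes fixed by name. They comprise the paralogue families of SWI/SNF subunits, in their ES-cell and neuronal forms, and the SNF2-family genes Smarcal1 and Smarcad1, which encode no BAF subunit. Every gene probe whose RefSeq accession maps to one of these symbols was taken, which gave 47 probes for all 30 genes, among 39411 probes usable on both arrays and 20823 genes named in this way.

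BAF complexes use the energy of ATP to slide or eject nucleosomes. One of 2 ATPases, Brg1 (Smarca4) or Brm (Smarca2), is joined by a set of shared subunits and by subunits that define the complex as BAF, PBAF or the non-canonical ncBAF. Many positions can be filled by alternative paralogues, and the choice changes with cell type: ES cells assemble esBAF around Brg1, Baf155, Baf60a and Baf45d, whereas post-mitotic neurons exchange Baf53a for Baf53b, and Baf45a or Baf45d for Baf45b or Baf45c. Baf53b is thus a neuronal subunit placed here in an ES cell, and the other subunits of both kinds can be read beside it.

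Both groups derive from a single clone of E14 ES cells, the Baf53a conditional knockout (cKO) line. Both alleles of Baf53a were disrupted in this clone with CRISPR/Cas9, and a cDNA resistant to the guide kept Baf53a expressed until tetracycline (Tet) was added. The cells, grown with LIF, received an expression vector (pCAGIP-Myc) for Myc-tagged Baf53a or for Myc-tagged Baf53b, and after 48 h were cultured for 6 days with 1 μg/mL Tet, which shuts off the inducible cDNA. RNA of each population was hybridised to 1 array of a 1-colour Agilent design, so the groups, called Baf53a-expressing and Baf53b-expressing cells, hold 1 sample each. Cells without Tet, or with an empty vector, were not analysed here. A single array per group leaves no replicate check and allows no test between the conditions, and every difference describes this pair of arrays.

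Levels are log2 processed signals relative to the 75th percentile of the array, and differences are Baf53b- minus Baf53a-expressing cells on that log2 scale. That percentile was a signal of 1161 in Baf53a- and 1128 in Baf53b-expressing cells. A probe was taken as measured when it was well above background on both arrays. Levels of different probes are not compared, because probes differ in brightness for reasons other than the amount of RNA. All 8 marker genes of ES cells, among them Pou5f1, Nanog and Sox2, were measured in both groups. Since most markers of other cell types were measured as well, their detection alone does not check the label.

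Of the 47 member probes, 41 were well above background on both arrays, 6 on neither and 0 on only 1 of them. The measured probes covered 29 of the 30 genes, against 79.8% of all named genes. The gene without a measured probe was Bicra, whose only probe stood at -6.97 and -7.17 (Baf53a- and Baf53b-expressing cells) and was not well above background in either. The other 5 probes in this state were 2 of the 3 probes of Arid1b, 1 of the 3 of Arid2, 1 of the 2 of Dpf3 and 1 of the 2 of Bcl11b, and each of these genes had another probe that was measured. Genes of the neuronal complex were detected in ES cells of both groups: Dpf1 (Baf45b), Dpf3 (Baf45c) and Ss18l1 (CREST) all had a probe well above background.

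**Figure D1:**
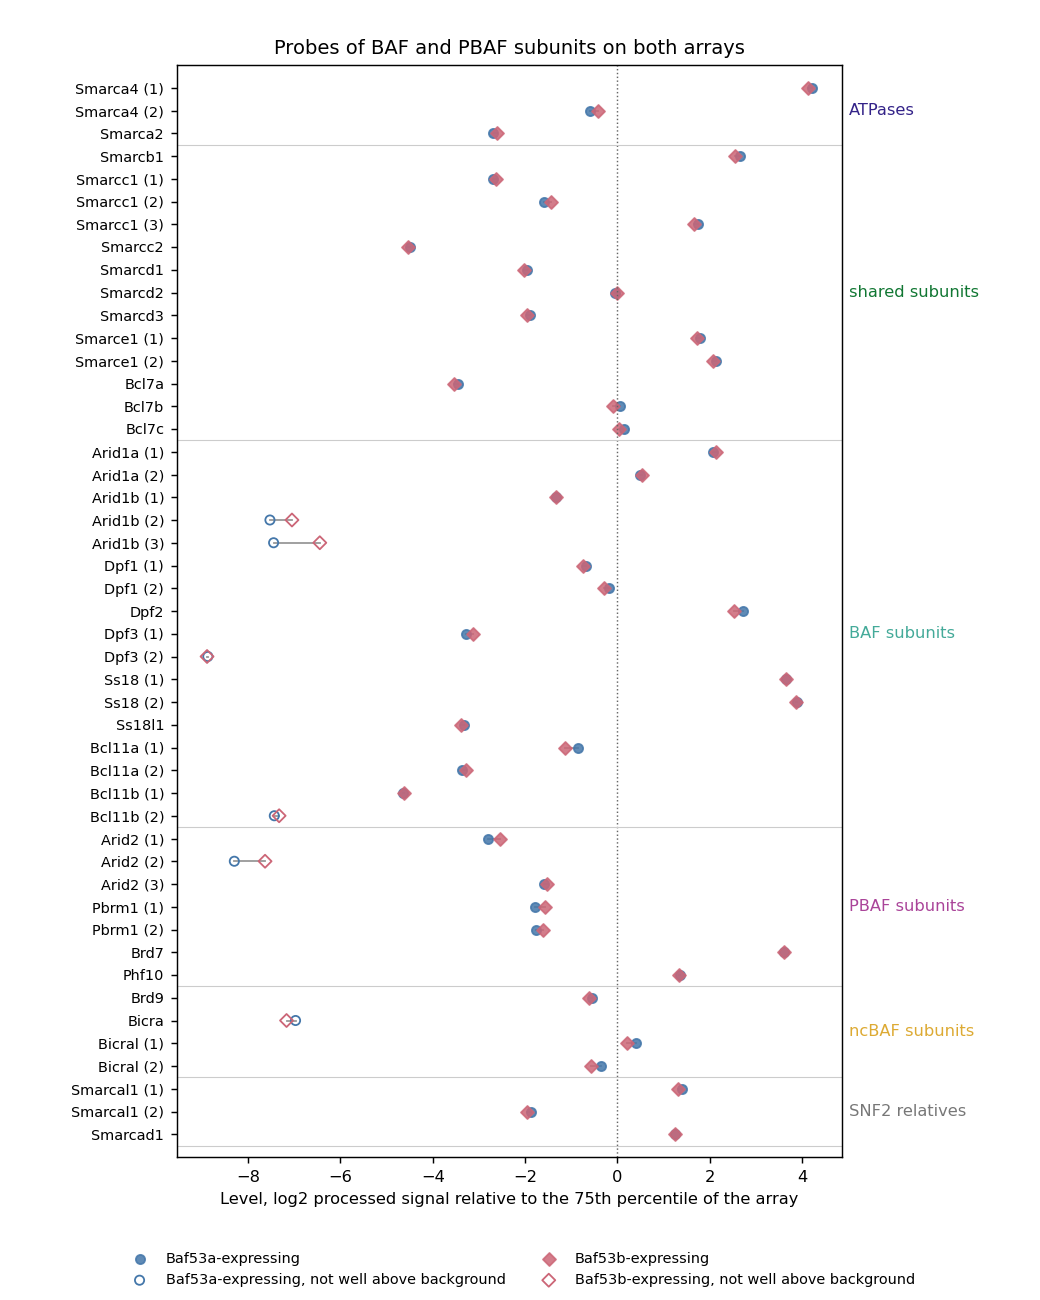
Level of each of the 47 member probes (log2 processed signal relative to the 75th percentile of its array) in Baf53a-expressing (blue circles) and Baf53b-expressing cells (red diamonds), 1 array each, ordered by role. Numbers in brackets count the probes of a gene in order of probe name, and open symbols mark the 6 probes not well above background. The symbols of the 2 groups lie close together for all 41 measured probes, and levels are to be compared within a probe and not between probes.

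The promoters of the members were read as sequence context. RefSeq entries on GRCm38.p6, covering 250 bases before and 50 bases after the annotated start, matched 24 of the 30 genes, and Smarce1, Arid2, Ss18, Bcl7a, Bicra and Bicral had no entry. The dinucleotide CG, which reads the same on both strands, was counted in the 300 bases, with the highest count kept for a gene with several entries. At least 20 CG were found in 20 of the 24 members (83.3%) and in 28.8% of all 27025 genes with such an entry. The latter include genes not measured on these arrays, where 16608 genes were measured. The share among measured genes was not counted, so the gap is not read as particular to the members. The members under that number were Smarcd2 (4), Bcl11b (9), Smarcal1 (13) and Dpf3 (17), and the other end was Phf10 with 62. Of the ES-cell forms 6 of 6 had at least 20, and of the alternative and neuronal forms 6 of 7. These counts describe the sequences and were not compared with the differences between the groups.
Printed here are the 250 bases before the start of Pbrm1, the member with the highest difference, and of the paralogues Dpf2 and Dpf3, the ES-cell and neuronal forms with the widest gap between their differences, all chosen after the values were seen. CG dinucleotides are in capitals and each sequence reads 5′ to 3′ on the strand of its gene. Pbrm1 lies at chr14:31018888-31019137 on the plus strand and holds 31 CG in these bases, Dpf2 at chr19:5912872-5913121 on the minus strand with 17, and Dpf3 at chr12:83487737-83487986 on the minus strand with 16.
Pbrm1: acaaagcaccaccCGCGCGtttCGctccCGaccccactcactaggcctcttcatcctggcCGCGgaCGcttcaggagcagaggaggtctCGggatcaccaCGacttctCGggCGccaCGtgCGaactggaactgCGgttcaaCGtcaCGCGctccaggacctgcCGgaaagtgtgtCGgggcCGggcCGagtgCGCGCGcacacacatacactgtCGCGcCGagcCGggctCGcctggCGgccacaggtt
Dpf2: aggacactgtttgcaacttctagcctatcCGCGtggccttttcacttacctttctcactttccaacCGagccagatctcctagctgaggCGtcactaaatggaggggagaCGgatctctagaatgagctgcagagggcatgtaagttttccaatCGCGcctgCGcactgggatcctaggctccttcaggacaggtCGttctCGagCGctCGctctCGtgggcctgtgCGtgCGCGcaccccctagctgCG
Dpf3: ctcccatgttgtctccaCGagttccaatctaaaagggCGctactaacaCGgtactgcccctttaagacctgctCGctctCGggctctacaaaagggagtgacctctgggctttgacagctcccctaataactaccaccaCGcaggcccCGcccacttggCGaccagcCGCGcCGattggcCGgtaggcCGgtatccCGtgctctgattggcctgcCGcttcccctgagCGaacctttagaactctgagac
The Pbrm1 sequence holds nearly as many CG as those of Dpf2 and Dpf3 combined, and the paralogues are alike in this count.

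The members differed little between the groups. Over the 29 measured genes, taking the mean over the probes of a gene, differences ran from -0.22 (Bicral) to 0.19 (Pbrm1) with a median of -0.04, beside a median of -0.0032 over all 16608 measured genes. No member reached 2-fold in either direction, where 0.102% of all genes reached it upward and 0.0903% downward in Baf53b-expressing cells. The balance of these 2-fold genes, 17 higher and 15 lower, was 13 to 24 with quantile normalization, 15 to 21 with cyclic loess and 16 to 20 when arrays were centred on the median. At a smaller threshold of 0.2 on the log2 scale, 0 members were higher and 1 was lower, where the background was 12.7% higher and 6.85% lower. Differences under 0.1 were found for 21 of the 29 members and for 52.2% of all genes. These shares over all genes are not matched for brightness. When all measured probes were cut into 5 groups by brightness, the SD of the difference was 0.324 in the dimmest and 0.108 in the brightest. Only 1 of the 41 measured member probes lay in the dimmest group, so smaller counts for the members are not read as a trait of theirs.

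By sign, 10 members were above and 19 below their level in Baf53a-expressing cells, where 49.1% of all genes were above it. This split depended on the scaling of the arrays. It was 4 higher and 25 lower with arrays centred on the median, which moved the median of all genes by -0.05 and left 35.6% of them higher. It was 12 and 17 with cyclic loess and with quantile normalization, where 48.3% and 46.9% of all genes were higher. With normexp background correction it was 14 higher and 15 lower, where 58.1% of all genes were higher. Under each of the 11 settings run for single genes, the one used throughout included, 4 genes were higher (Smarca2, Dpf3, Arid2 and Pbrm1) and 12 lower. Bcl7a was lower in the 10 that gave it a value, since the stricter filter on dim probes dropped it, and the other 12 changed sign in at least 1 setting. The settings are not separate checks. For a gene with a single probe, such as Smarca2, those that change only filters, outlier spots or the choice of probe return nearly the same value. With the deposited ratios this holds for every member, as they are the same signals with nearly the same scaling.

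Each member probe was printed as 1 spot, so no member has a spread between spots of its own. The feature extraction software attached an error to each spot, which for the difference between the arrays came to between 0.204 and 0.227 for the 41 measured member probes. Of these probes, 5 differed by more than that error, or 12.2%, against 19.2% of all 29247 measured probes, a share not matched for brightness. The 5 were 1 of 2 probes of Bcl11a, both probes of Bicral, 1 of 2 of Pbrm1 and 1 of 2 measured of Arid2. Probes that were printed as replicate spots gave a spot-to-spot SD of a difference of 0.0590 in the brightest and 0.274 in the dimmest of 5 brightness groups of near-equal size. Neither of these errors holds the variation between cultures, labelling reactions or hybridisations.

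**Figure D2:**
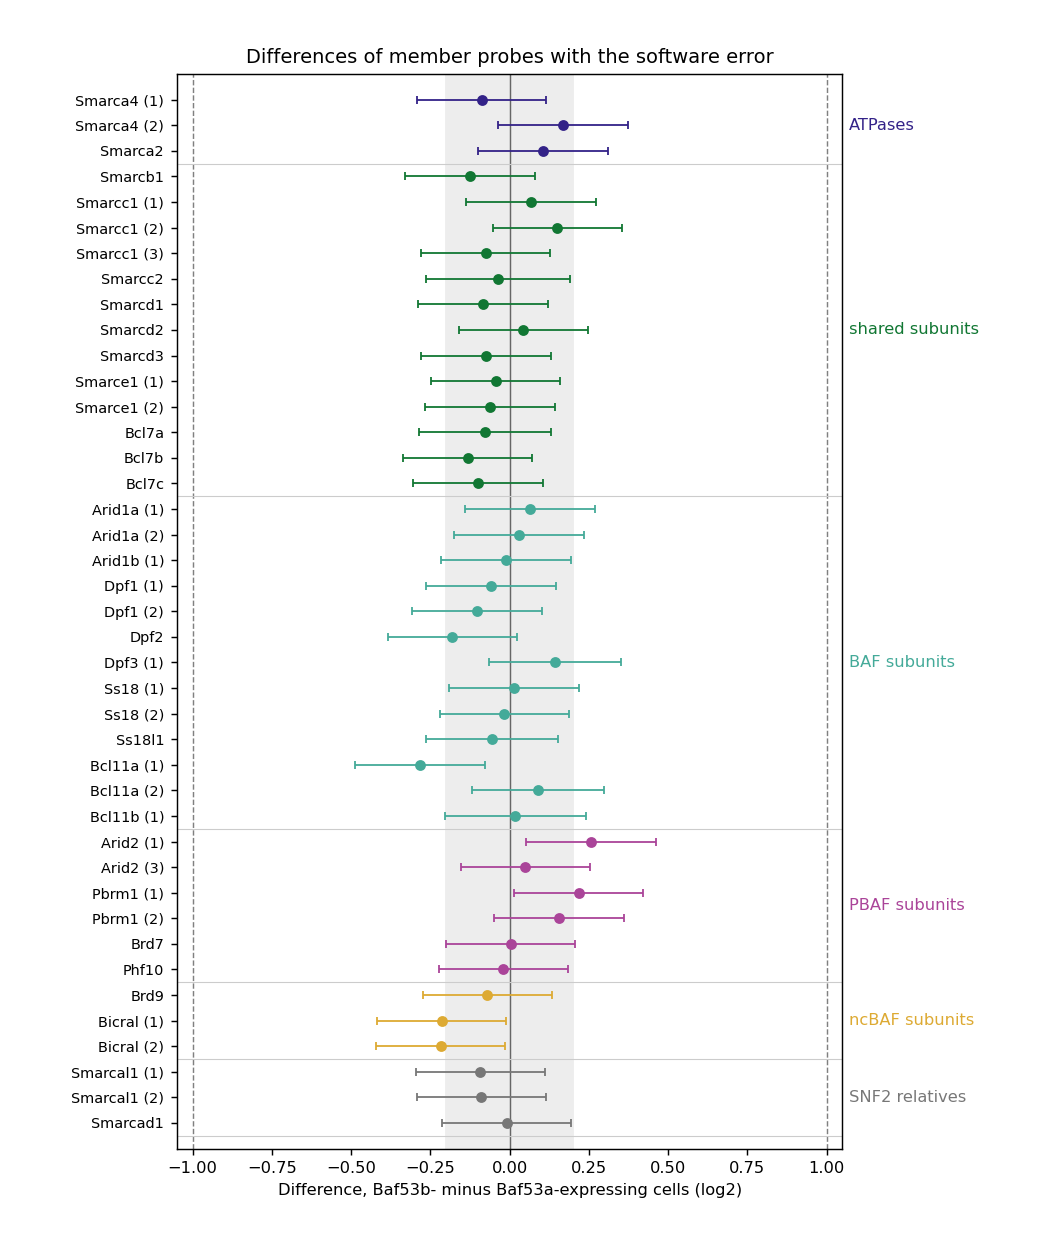
Difference of each of the 41 measured member probes, Baf53b- minus Baf53a-expressing cells (log2), with bars of 1 software error to either side and colours by role. The grey band marks 0.2 on the log2 scale in either direction and the dashed lines mark 2-fold. All points lie far inside the dashed lines, and the bars of all but 5 probes cross 0.

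The ATPases come first. Brg1 (Smarca4), the catalytic subunit of esBAF, was read by 2 probes that disagreed: one stood at 4.22 in Baf53a- and 4.13 in Baf53b-expressing cells, a difference of -0.09, and the other at -0.59 and -0.42, a difference of 0.17. The signs are opposite and both differences are smaller than the software error, so no direction was resolved for this gene. The single probe of Brm (Smarca2), the alternative ATPase, stood at -2.71 and -2.60, which is 0.11 higher in Baf53b-expressing cells. Under cyclic loess, which removes trends with brightness, the gene values were 0.07 for Smarca4 and 0.06 for Smarca2, and Smarca2 minus Smarca4 came to -0.0079.

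Among the shared subunits, 8 of 10 genes were lower in Baf53b-expressing cells, with a median of -0.08 and a range of -0.13 to 0.05. All 10 were lower with arrays centred on the median, and 7 with normexp. The share of all genes that were higher was 49.1%, and became 35.6% with median centring and 58.1% with normexp. Smarcb1 and Smarce1 are shared by BAF and PBAF but not by ncBAF. Smarcb1, which anchors the complex on the nucleosome, stood at 2.67 in Baf53a- and 2.54 in Baf53b-expressing cells, a difference of -0.12. Smarce1, an HMG-box subunit, had 2 probes that gave -0.04 and -0.06 from levels of 1.78 and 2.13 in Baf53a-expressing cells. All of these values are within the software error.
The scaffold subunits Baf155 (Smarcc1) and Baf170 (Smarcc2) bracket the complex and hold its core together. The 3 probes of Smarcc1, the form used in esBAF, gave 0.07, 0.15 and -0.08, from levels of -2.69, -1.59 and 1.74 in Baf53a-expressing cells, and averaged 0.05. Smarcc2 stood at -4.49 and -4.53, a difference of -0.04. The spread between the probes of Smarcc1 was thus larger than the difference between the paralogues.
The Baf60 subunits link the complex to transcription factors. Baf60a (Smarcd1), the ES-cell form, had a level of -1.95 in Baf53a- and -2.03 in Baf53b-expressing cells, a difference of -0.08. Baf60c (Smarcd3), which serves in neurons and muscle, stood at -1.89 and -1.97, also a difference of -0.08. Smarcd2 stood at -0.04 and 0.0014, a difference of 0.04. The ES-cell and neuronal forms differed from each other by 0.0087 in their shift.
All 3 Bcl7 genes, small accessory subunits of the ATPase module, were lower in Baf53b-expressing cells. Bcl7a stood at -3.46 and -3.54 (-0.08), Bcl7b at 0.05 and -0.09 (-0.13) and Bcl7c at 0.13 and 0.03 (-0.10). Bcl7b and Bcl7c kept this sign in all 11 settings and Bcl7a in the 10 that gave it a value. Each has a single probe, so mainly the changes of scaling could alter the sign. Each value lies within the software error of about 0.20.

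The subunits of canonical BAF were split, with 3 of 9 measured genes higher with Baf53b, 6 lower and a median of -0.01. With normexp 5 were higher and 4 lower. The share of all genes that were higher was 49.1%, and 58.1% with normexp. Of the 9 genes, Ss18 and Ss18l1 also belong to ncBAF. The large ARID subunits Baf250a (Arid1a) and Baf250b (Arid1b) exclude each other in this complex and set it apart from PBAF. The probes of Arid1a stood at 2.06 and 0.49 in Baf53a-expressing cells and at 2.13 and 0.52 in Baf53b-expressing cells, differences of 0.06 and 0.03. The measured probe of Arid1b stood at -1.32 and -1.34, a difference of -0.01. Its other probes were at the level of background, and when they were counted the value of Arid1b became 0.49, from signals of 6.29 and 6.64 in Baf53a-expressing cells and 8.50 and 12.9 in Baf53b-expressing cells.
The double PHD finger proteins recognise modified histone tails and are exchanged in neurons. Baf45d (Dpf2), the ES-cell form, stood at 2.71 in Baf53a- and 2.53 in Baf53b-expressing cells, a difference of -0.18. Baf45b (Dpf1) had probes at -0.69 and -0.19 in Baf53a-expressing cells and at -0.74 and -0.29 in Baf53b-expressing cells, differences of -0.06 and -0.10. Baf45c (Dpf3) stood at -3.28 and -3.13 by its measured probe, a difference of 0.14. Dpf2 was lower and Dpf3 higher, a gap of 0.32 that was the widest among the 7 paralogue pairs set side by side and became 0.22 under cyclic loess. Neither difference exceeds its software error.
Ss18, a transcriptional co-activator that binds the ATPase module, gave 0.01 and -0.02 by its 2 probes, at levels of 3.65 and 3.90 in Baf53a-expressing cells. Its neuronal paralogue Ss18l1 stood at -3.32 and -3.38, a difference of -0.06, which became 0.09 with normexp. For the zinc-finger subunits, the probes of Bcl11a disagreed: the first stood at -0.85 in Baf53a- and at -1.13 in Baf53b-expressing cells, a difference of -0.28 and the widest of any measured member probe, while the second stood at -3.38 and -3.29, a difference of 0.09. The accessions of these 2 probes name different Bcl11a transcripts. Bcl11b stood at -4.64 and -4.63 by its measured probe, a difference of 0.02.

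PBAF carries Baf200 (Arid2), Baf180 (Pbrm1), a protein with several bromodomains, and the bromodomain protein Brd7 in place of the Arid1 subunits. Of its 4 own subunits on the list, 3 were higher in Baf53b-expressing cells and 1 lower, with a median of 0.08. With cyclic loess all 4 were higher, and with arrays centred on the median 2 were. The shares of all genes that were higher in these 3 settings were 49.1%, 48.3% and 35.6%. Pbrm1 stood at -1.78 and -1.77 by its 2 probes in Baf53a-expressing cells and at -1.57 and -1.62 in Baf53b-expressing cells, differences of 0.22 and 0.15. The gene value, 0.19 or 1.14-fold, was the highest of all members. Arid2 stood at -2.79 and -1.58 in Baf53a- and at -2.54 and -1.53 in Baf53b-expressing cells, differences of 0.26 and 0.05 and a gene value of 0.15. All 4 measured probes of these genes were higher in Baf53b-expressing cells, 2 of them by more than the software error. Of all 29247 measured probes, 14524 were higher, and 19.2% differed by more than the error. As these genes have the 2 highest gene values of the members, the shared sign largely restates those values.
The other PBAF subunits lay closer to 0. Brd7 stood at 3.61 in both groups, with a difference of 0.0039, and Baf45a (Phf10), the PHD finger subunit of PBAF, at 1.35 and 1.33, a difference of -0.02. Over all settings run for single genes, the value of Pbrm1 lay between 0.14 and 0.22 and that of Arid2 between 0.05 and 0.32, with the lowest value of Arid2 from its brighter probe alone.

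In ncBAF, the bromodomain subunit Brd9 stood at -0.54 in Baf53a- and -0.61 in Baf53b-expressing cells, a difference of -0.07. Bicral, one of the paralogous subunits that define this complex, was the lowest of all members. Its probes stood at 0.41 and -0.36 in Baf53a-expressing cells and at 0.20 and -0.58 in Baf53b-expressing cells, differences of -0.21 and -0.22 that lie 0.0032 apart. The gene value of -0.22, or 0.861 of the level in Baf53a-expressing cells, stayed between -0.27 and -0.19 over the settings run. Its paralogue Bicra could not be compared, as its probe was not well above background.
The SNF2 relatives outside the complex, the annealing helicase Smarcal1 and Smarcad1, which acts in heterochromatin and DNA repair, lay within the range of the subunits. Smarcal1 gave -0.09 by each of its 2 probes, from levels of 1.41 and -1.88 in Baf53a-expressing cells, and Smarcad1 stood at 1.26 and 1.25, a difference of -0.0088. Of a list of 28 other SNF2-family ATPases, 25 were measured, 15 higher and 10 lower in Baf53b-expressing cells, with a median of 0.02 and a range from -0.20 (Rad54l) to 0.12 (Chd1). This split was 6 to 19 with arrays centred on the median and 12 to 13 with quantile normalization. The shares of all genes that were higher were 49.1% before such rescaling, 35.6% with median centring and 46.9% with quantile normalization. Of the 25, 0 reached 0.2 before such rescaling.

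Whether the neuronal forms shifted together was read from 2 lists of 7 genes. The ES-cell forms (Smarca4, Smarcc1, Smarcd1, Arid1a, Dpf2, Phf10 and Ss18) had a median of -0.0018 and ran from -0.18 to 0.05, with 3 higher and 4 lower. The alternative and neuronal forms (Smarca2, Smarcc2, Smarcd3, Arid1b, Dpf1, Dpf3 and Ss18l1) had a median of -0.04 and ran from -0.08 to 0.14, with 2 higher and 5 lower, where 49.1% of all genes were higher. The ranges overlap over most of their length, and in paralogue pairs the neuronal or alternative form was the higher one relative to its partner in 4 of 7 pairs and in 3 of 7 under cyclic loess. Among them, 2 pairs share Dpf2 and its value. Under cyclic loess the medians were 0.04 and -0.08, and with normexp -0.02 and 0.04, so the order of the lists was not settled.
Of the subunits the vectors carried, Actl6b differed and Actl6a did not show the difference the labels name. Actl6b, the gene of Baf53b, had a level of -3.24 with the Baf53b vector and was not well above background with the Baf53a vector. Set against the lowest level well above background on the latter array, -7.10, it was 14.5-fold higher. That level is not a strict limit, since Bicra stood at -6.97 on the same array and was not well above background. Actl6a (Baf53a) stood at 1.71 and 1.67, a difference of -0.04, although the labels set cells expressing Baf53a against cells expressing Baf53b. Where its probe lies relative to the coding region carried by the vector was not analysed here, so this value does not check the labels. Actb, the actin subunit of the complex, differed by 0.01.

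The differences varied with the brightness of the probes. From the dimmest to the brightest of the 5 groups of probes, the median difference ran from 0.10 to -0.06 and the SD from 0.324 to 0.108. Of the 41 measured member probes, 10 lay in the brightest group, 12 in the next and 1 in the dimmest. Set against probes of like brightness, 4 member probes were more than 1 SD above the median of their group (background 14.1%). A further 4 were more than 1 SD below it (background 11.9%). Those above belonged to Arid2, Smarca4, Pbrm1 and Arid1a, and those below to Bcl11a, Bicral (both probes) and Dpf2. The most extreme was the Bcl11a probe, at -1.97 SD, so 0 member probes were beyond 2 SD. The share of all probes beyond 2 SD was not counted, so this 0 has no background. From the dimmest group to the brightest, the member probes had medians of 0.02, -0.04, 0.05, -0.08 and -0.05, which did not fall steadily.

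**Figure D3:**
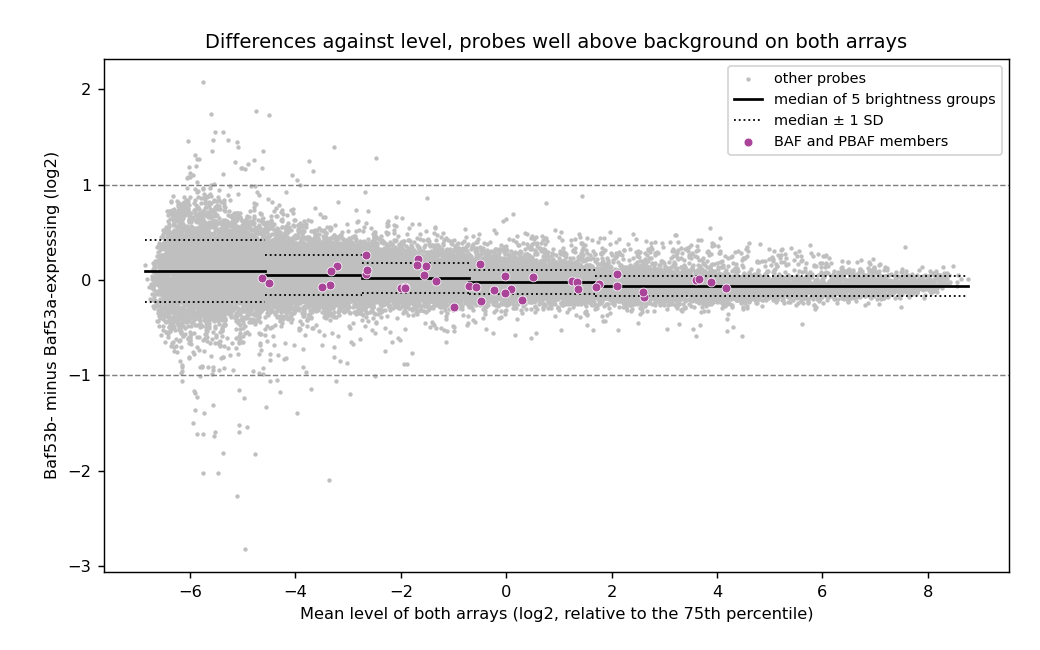
Difference (Baf53b- minus Baf53a-expressing cells, log2) against the mean level of both arrays for the 29247 probes well above background on both, with the 41 member probes in purple. Solid lines give the median of each of the 5 brightness groups, dotted lines 1 SD to either side and dashed lines 2-fold. All member probes lie within 2 SD of the median of their group, and the share of all probes that do so was not counted.

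For 11 members more than 1 probe was measured. The probes had the same sign in 7 of them, or 63.6%, against 59.8% of the 4212 genes with several measured probes. The median spread between the highest and lowest probe was 0.04 for members and 0.11 for all such genes. Neither comparison was matched for brightness or for the number of probes. The spread was widest for Bcl11a (0.37), Smarca4 (0.26), Smarcc1 (0.23) and Arid2 (0.21), and it was as narrow as 0.0034 for Smarcal1. Bicral and Pbrm1, the members at the ends of the range, gave values 0.0032 and 0.06 apart by their 2 probes.

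Markers of other cell types were read in the same way, with the summed level of a list taken as the log2 sum over its genes, each by its brightest probe. All 6 primitive endoderm genes were higher in Baf53b-expressing cells, by 0.21 to 0.40, and their summed level was 1.10 in Baf53a- and 1.38 in Baf53b-expressing cells. Of the trophoblast genes, 3 of 4 were measured (not Elf5) and all 3 were higher, by 0.18 to 0.25, with summed levels of 1.46 and 1.67. Both lists kept every sign under the 5 scalings, and the highest member, at 0.19, lay below all 6 primitive endoderm genes. Neuronal markers were measured for 7 of 8 genes (not Dcx), 4 higher and 3 lower, from -0.17 to 0.35, with summed levels of 4.24 and 4.37, and 3 were higher and 4 lower with quantile normalization. Fibroblast genes were measured for 4 of 5 (not Col3a1), with 3 higher and 1 lower, from -0.15 (Thy1) to 0.37 and a median of 0.13, while the summed levels were 0.32 and 0.28, and 2 were higher and 2 lower with arrays centred on the median. Of the ES-cell genes, 7 of 8 were lower, over a range from -0.15 to 0.07, and 5 of 8 under cyclic loess. Their summed levels were 7.48 and 7.37. Over all genes, 49.1% were higher, 46.9% with quantile normalization, 35.6% with median centring and 48.3% under cyclic loess. By at least 0.2, 12.7% of all genes were higher. These shares are not matched for brightness. From the dimmest to the brightest of the 5 groups of probes, the median difference ran from 0.10 to -0.06, and the lists differ in brightness. The part of that trend in these counts was not tested. The part of the marker shifts in the values of Pbrm1, Arid2, Bicral or any other member was not tested. In a bulk sample, fewer cells of a type and less RNA per cell cannot be told apart.

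**Figure D4:**
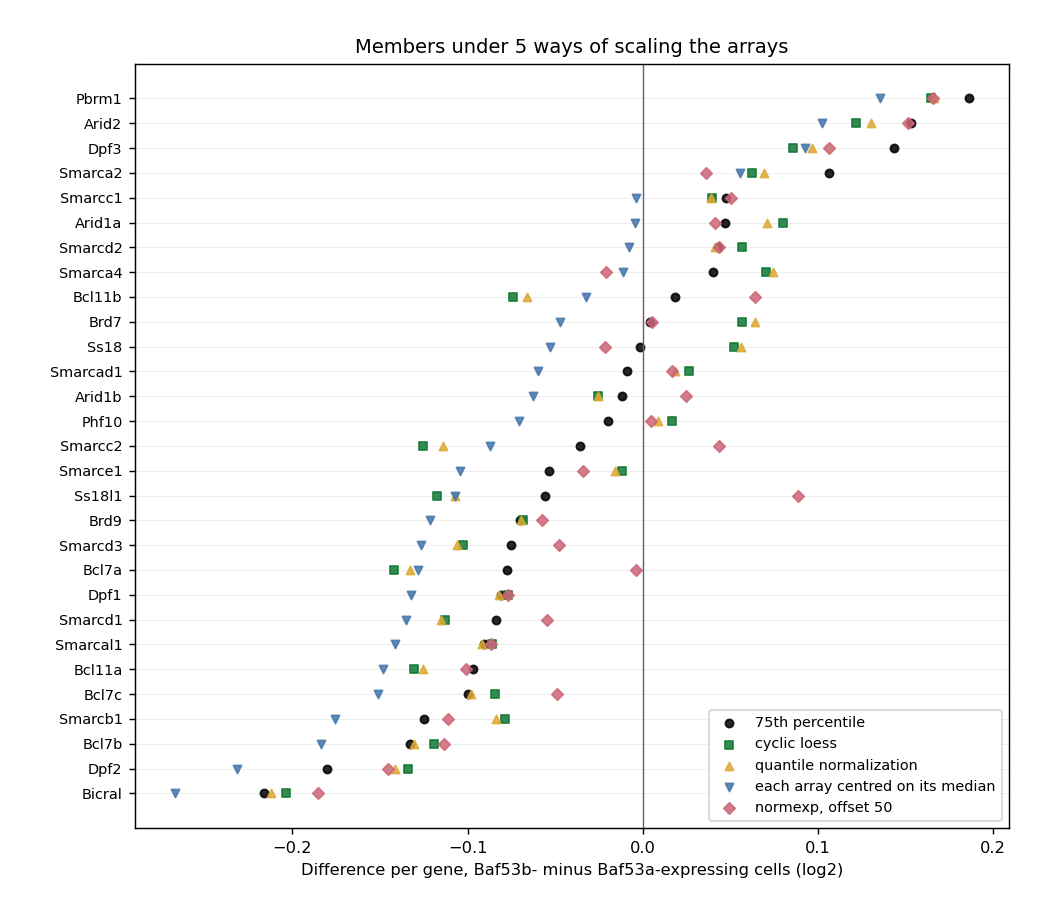
Difference of each of the 29 measured member genes (log2, Baf53b- minus Baf53a-expressing cells) under 5 ways of scaling the same arrays, ordered by the value at the 75th percentile. Pbrm1, Arid2, Dpf3 and Smarca2 lie right of 0 in all 5, Bicral and Dpf2 lie farthest left at the 75th percentile, and most genes in the middle cross 0 or lie near it.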

How the data were processed

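Total RNA (0.2 μg) of 1 sample per group was labelled with Cy3 and hybridised to a 1-colour Agilent mouse array. The deposited intensity of a spot is the processed signal that the authors took from Agilent Feature Extraction 11.0.1.1, background-subtracted and detrended but not scaled between arrays. A second deposited table holds a ratio for each of 30488 probes, and 30479 could be compared: they equal the processed signal divided by 1160 or 1126 within 0.1%.

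Control and outlier spots were dropped, the spots of each probe averaged as log2 signals, and the 75th percentile of the array taken off. A probe was measured when at least 50% of its spots were flagged well above background on both arrays, and genes took the mean of their measured probes. The lowest signals with the flag were 8.45 and 9.75, though some higher signals lacked it, and 0 spots were saturated. The number of arrays limits the precision. Names and promoters came from RefSeq tables of GRCm38.p6. Probe sequences were not analysed here, so cross-hybridisation between paralogues was not examined.

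The members and lists were chosen with earlier results of these data known, and all 30 members are named. Alternatives were quantile normalization, cyclic loess, median centring, normexp (offset 50, on the median spot signal), 3 other filters on dim probes, outlier spots kept, the deposited ratios, the brightest probe of a gene and each probe alone. The scaling steps were tested on simulated data with changes larger than 2-fold, which does not cover differences as small as those of the members. Python 3.11.15, numpy 2.4.6, pandas 2.3.3, R 4.3.3 and limma 3.58.1 were used.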

Additional observations from a re-analysis of the deposited data

How the results depend on the processing

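No paired analysis was possible because each condition had a single array, so no replicate could be left out and no block for the slide could be fitted. Smarcc2, Bcl7a and Bcl11b had no value under the stricter filter on dim probes. Members at least 2-fold apart numbered 0 in each setting run. Those at least 0.2 apart numbered 1, and became 2 with arrays centred on the median, 3 without the filter on dim probes, 3 with the weaker flag, 3 with the brightest probe of each gene and 0 with normexp. With each probe on its own, 5 probes of 4 members were at least 0.2 apart. The extra members without the filter were Arid1b (0.49) and Arid2 (0.32), which follow from the dim probes that then enter. The median of all members stayed between -0.09 and -0.0039. That of the alternative and neuronal forms became 0.0362 with normexp, and that of the ES-cell forms -0.0753 with the brightest probe of each gene. The cause of either was not tested. Over the whole array, 74 probes were at least 2-fold apart, against 1337 without the filter and 754 with the weaker flag, which let dim probes in, 2 with the stricter filter, which drops them, and 2 with normexp, whose offset draws dim signals together. The split of genes at least 0.2 higher against lower, 2106 to 1138, was 1494 to 1562 with quantile normalization, 1517 to 2143 under median centring and 1590 to 1465 under cyclic loess. Of the 29 member values, 6 changed sign with arrays centred on the median, 6 with normexp, 4 with cyclic loess and 4 with quantile normalization. None changed sign with outlier spots kept or with the deposited ratios, but neither setting could test the signs. The deposited ratios are the same signals divided by 1160 and 1126, close to the 1161 and 1128 used here. Each member probe is 1 spot, so keeping outlier spots altered only the scaling of the arrays. The value of Ss18, -0.0018, became -0.0016 with outlier spots kept and -0.0015 with the deposited ratios.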
